A study of Homo sapiens with 2 samples.

Results

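The genes described here are the replication-dependent histone genes, the clustered genes whose products package newly made DNA. They were measured in LP-1, an established line of human myeloma, the tumour of plasma cells, on 2 whole-transcript Affymetrix arrays with 1 array per group. The HIF2A array holds RNA of the LP-1 line that stably overexpresses human HIF-2α from the vector pRUF-IRES-GFP-HIF2A. These are called HIF2A cells here. The vector control array holds RNA of the control cells, LP-1 infected with pRUF-IRES-GFP alone, so both lines passed through the same vector. The labels give neither the number of cultures or clones behind a line nor the oxygen level. Members were the genes whose symbol in the array annotation fits the naming of the clustered H2A, H2B, H3 and H4 genes or is H1-1 to H1-6, on probe sets that list a single gene. That gave 55 genes of 18377, namely 6 of H1, 14 of H2A, 16 of H2B, 8 of H3 and 11 of H4.

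Histone proteins form the spool around which DNA winds. H3 and H4 make its core tetramer, H2A and H2B join as dimers, and H1 sits on the linker DNA outside. Most replication-dependent histone genes are switched on together as cells enter S phase, and their mRNAs end in a stem-loop in place of a poly(A) tail. The stem-loop is bound by SLBP and the mRNAs are destroyed when DNA synthesis stops, so histone mRNA follows the fraction of cells that are replicating DNA. In a bulk sample, fewer cells in S phase and less histone mRNA per S phase cell cannot be told apart. The whole-transcript labelling named in the labels does not depend on a poly(A) tail.

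Members share their promoter elements by type, which the choice of members did not use. RefSeq promoter windows (GRCh38.p14), from 250 bases before to 50 after the gene's start, were at hand for 50 of the 55 members and for 27305 genes in all. The windows were searched on both strands for 5 short motifs. The TATA box was searched as TATAAA. The CCAAT box was searched by the letters of its name. The octamer read by POU factors was searched as ATTTGCAT. The H1 box of linker histone promoters was searched as AAACACA. The core of the element read by HINFP, an activator of H4 genes, was searched as GGTCCG. A reversed HINFP core can share letters with a CCAAT box. The octamer was found in 13 of 16 H2B windows (81.2%) and 10 of 13 H2A windows (76.9%), in 0 of the H1, H3 and H4 windows, and in 1.80% of all windows. In 7 of the 13 H2B windows it began 45 to 49 bases before the start. The HINFP core was found in 8 of 9 H4 windows, always 44 to 46 bases before the start, against 11.2% of all windows. The H1 box stood in 6 of 6 H1 windows, against 5.76% of all. The CCAAT box stood in every H1, H2A, H2B and H3 window but in only 3 of 9 H4 windows, against 35.7% of all windows. A TATA box was found in 68% of the members' windows and in 12% of all. Head-to-head H2A and H2B genes share most of their windows, so the same site can be counted for both types. This applies to the octamer, as in H2AC11 and H2BC11, and to TATA and CCAAT boxes. The H2A and H2B counts are therefore not separate from each other. A match of letters is a description and says nothing of binding in these cells.

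The sequences below show 250 bases upstream of members that the results turn on, 5′ to 3′ on the gene's own strand, with every match to the 5 motifs in capitals. H2AC8 had the largest negative difference of any member. It shares the first stretch with H2BC8, since these genes start 233 bases apart and run in opposite directions. H2BC4 and H2AC6, both higher, share the second in the same way. The direction of H2BC8 was fixed by the filter on dim signals described below. H2BC21 and H2BC10 had the largest positive H2B differences, H4C4 the largest negative H4 difference, and H1-4 stands for the linker histones.
H2AC8 (chr6:26216671-26216920, plus strand): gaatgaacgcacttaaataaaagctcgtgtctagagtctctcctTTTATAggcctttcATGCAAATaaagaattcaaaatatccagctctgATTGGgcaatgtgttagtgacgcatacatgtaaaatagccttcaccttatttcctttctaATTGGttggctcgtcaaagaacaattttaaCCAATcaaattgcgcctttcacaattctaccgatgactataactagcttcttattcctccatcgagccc
H2AC6 (chr6:26123922-26124171, plus strand): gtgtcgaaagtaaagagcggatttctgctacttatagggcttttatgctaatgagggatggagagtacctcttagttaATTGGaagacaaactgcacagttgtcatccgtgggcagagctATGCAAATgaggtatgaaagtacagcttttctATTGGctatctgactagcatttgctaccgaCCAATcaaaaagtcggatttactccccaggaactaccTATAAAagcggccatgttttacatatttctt
H2BC21 (chr1:149886683-149886932, minus strand): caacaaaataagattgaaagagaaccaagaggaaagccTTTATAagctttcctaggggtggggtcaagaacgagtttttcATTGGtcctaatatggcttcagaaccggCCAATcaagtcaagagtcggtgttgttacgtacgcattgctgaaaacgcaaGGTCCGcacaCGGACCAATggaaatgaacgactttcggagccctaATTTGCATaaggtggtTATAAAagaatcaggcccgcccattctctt
H2BC10 (chr6:26272681-26272930, plus strand): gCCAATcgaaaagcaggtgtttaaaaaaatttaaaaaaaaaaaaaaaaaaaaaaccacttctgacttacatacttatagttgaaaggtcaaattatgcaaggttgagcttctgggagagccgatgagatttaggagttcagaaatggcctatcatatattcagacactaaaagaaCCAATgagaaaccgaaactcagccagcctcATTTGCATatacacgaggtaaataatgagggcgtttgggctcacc
H4C4 (chr6:26189113-26189362, minus strand): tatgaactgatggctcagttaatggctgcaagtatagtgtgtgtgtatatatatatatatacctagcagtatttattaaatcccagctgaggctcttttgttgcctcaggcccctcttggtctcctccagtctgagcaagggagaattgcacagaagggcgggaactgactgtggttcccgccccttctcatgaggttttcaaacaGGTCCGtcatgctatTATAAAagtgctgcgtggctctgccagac
H1-4 (chr6:26156079-26156328, plus strand): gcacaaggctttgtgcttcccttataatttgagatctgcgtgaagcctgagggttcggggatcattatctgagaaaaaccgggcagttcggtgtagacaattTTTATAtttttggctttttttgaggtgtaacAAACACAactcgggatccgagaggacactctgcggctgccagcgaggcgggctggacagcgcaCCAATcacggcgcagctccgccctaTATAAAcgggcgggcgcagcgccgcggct

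The labels held for the transgene. EPAS1, the gene of HIF-2α, had a log2 signal of 9.05 in HIF2A cells and 3.70 in control cells, which is 40.8-fold. The plasma cell markers SDC1, CD38, TNFRSF17, XBP1, IRF4, PRDM1, MZB1 and JCHAIN all passed the filter described next. The measured B cell markers did not, at 0 of 4, and neither did most of those of T and NK cells (1 of 6), myeloid cells (1 of 5), stromal cells (2 of 5) and endothelial or erythroid cells (2 of 4). The median signal over 28869 probe sets was 4.0 in HIF2A cells and 4.02 in control cells.

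Differences are given as HIF2A minus vector control on the deposited log2 scale. A gene passed the filter on dim signals when its brighter array reached 4.01, the median probe set's mean signal. With a single array per group there is no replicate error, no test and no p-value for any value below. The spread over the 11469 genes past the filter, a robust SD of 0.34 log2 units around a median of 0.03, is the only scale to hold them against. Signals of different probe sets are not comparable as amounts of RNA, and every member rests on 1 probe set. Histone genes of a type have near-identical coding sequences, and how far their probes cross-hybridize was not tested.

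On probe sets that list a single gene, histone genes were mostly a little lower in HIF2A cells. The probe sets shared by several genes, given further below, went the other way, with 14 of 20 higher and 5 lower. Of the 55 members 41 passed the filter, with 27 lower, 13 higher and 1 equal, where 46.1% of all genes past it were lower. The median difference of these members was -0.18, against 0.03 for all genes. Large differences were few. At least 1.5-fold lower were 4 members (H2AC8, H2BC8, H2AC4 and H2BC9), where 4.76% of all genes were. H2BC8, 1 of the 4, passed the filter only through the vector control array, where it is the higher, so it had to differ. At least 1.5-fold higher were 0 members, against 5.67% of all genes. At 2-fold there was 1 lower member, H2AC8, and 0 higher ones, where 0.732% of all genes were lower and 0.706% higher. For 26 of the 41 the difference was no larger than the robust SD. The quartiles over all genes past the filter, -0.20 and 0.26, also lie within it. The share of all genes within it was not counted, so the 26 do not set histone genes apart.

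**Figure D1:**
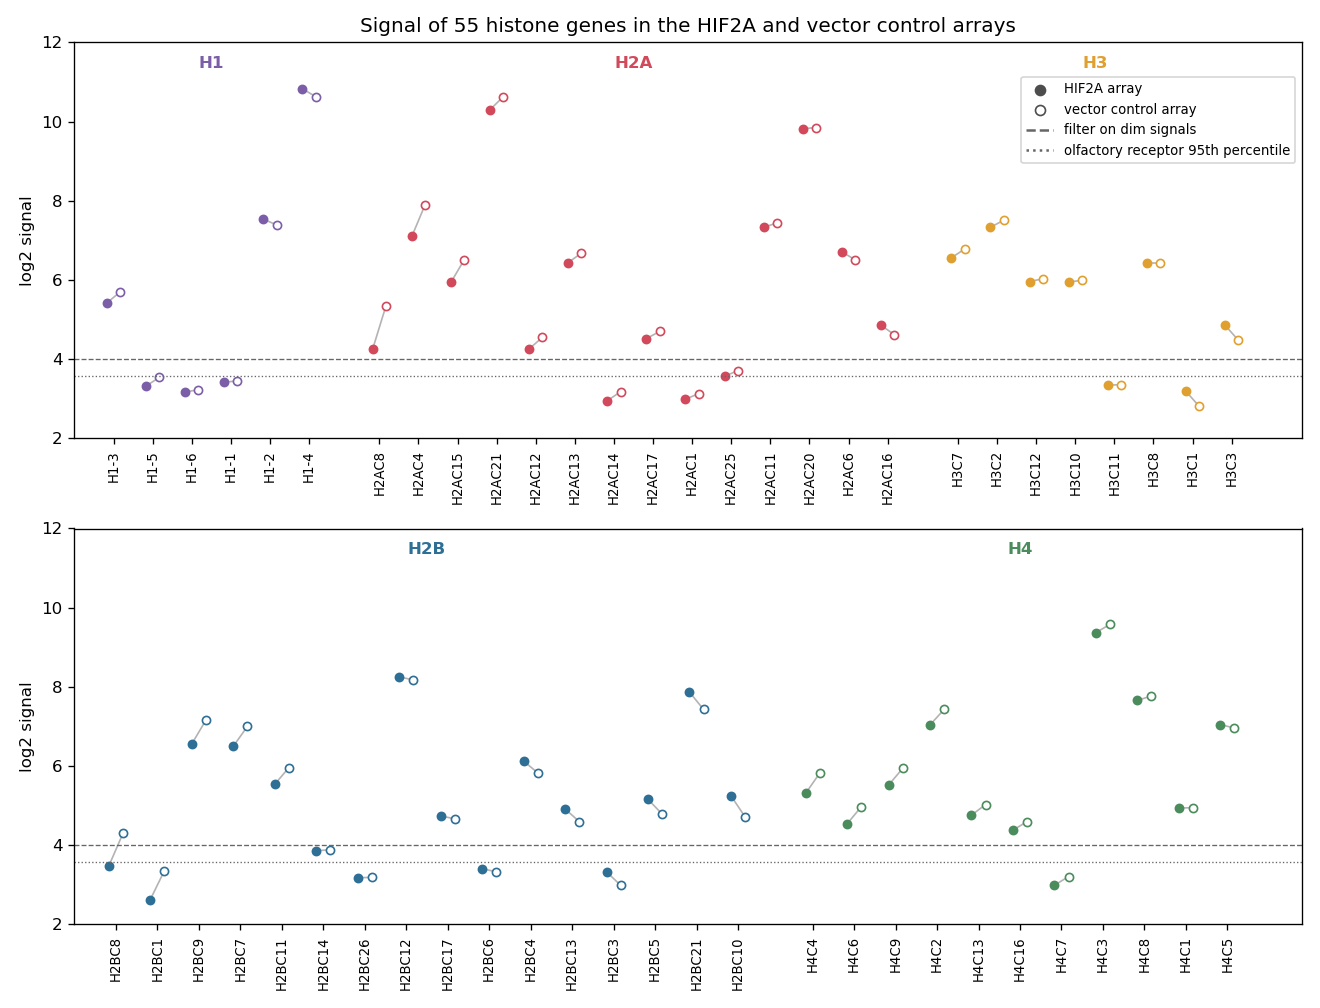
Log2 signal (vertical axis) of each of the 55 members in the HIF2A array (filled points) and the vector control array (open points), by type and ordered by difference. The dashed line is the filter at 4.01 and the dotted line the 95th percentile of olfactory receptor genes at 3.58. Most filled points lie slightly below their open partners, and H2AC8 and H2AC4 show the widest gaps among members above the dotted line in both arrays.

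H2A genes had a median of -0.24 over the 11 past the filter, of which 9 were lower and 2 higher. H2AC8 had a log2 signal of 4.26 in HIF2A cells against 5.35 in control cells, which is 2.13-fold lower. H2AC4 had 7.10 in HIF2A cells against 7.90 in control cells, 1.74-fold lower. H2AC15 had 5.94 in HIF2A cells against 6.51 in control cells, just short of 1.5-fold. A probe set that lists both H2AC15 and H2BC15 was higher, with 5.19 in HIF2A cells against 5.06 in control cells. On their own probe sets, H2AC8, H2AC4 and H2AC15 stand apart from the rest of the type, whose differences ran from -0.33 to 0.24. H2AC21, on chromosome 1, had 10.30 in HIF2A cells against 10.63 in control cells. The 2 probe sets that list H2AC21 and H2AC20 with H2AC18 and H2AC19 were higher, by 0.12 each. Only H2AC16, with 4.86 in HIF2A cells against 4.62 in control cells, and H2AC6, with 6.71 in HIF2A cells against 6.51 in control cells, were higher. H2AC12, H2AC13, H2AC17, H2AC11 and H2AC20 were lower by smaller steps, with differences between -0.29 and -0.03.

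H2B genes split into lower and higher members. Their median was 0.07 over 11 genes, with 7 higher and 4 lower, and on its own probe set no gene lay between -0.42 and 0.07. The sign of this median is not settled: it was -0.175 with the filter at the 75th percentile, -0.005 after subtracting the median of 20 neighbours on the chromosome and -0.0218 as a mean. It was -0.42 without the genes also known for polyadenylated transcripts. Every gene so removed was higher, so that removal could only raise the share of lower genes. On the lower side, H2BC8 had 3.48 in HIF2A cells against 4.30 in control cells. Its HIF2A signal lies under 3.58, the 95th percentile of the olfactory receptors taken as background, so it is given as at least 1.65-fold lower. H2BC8 passed the filter only through the vector control array, so its place among the 4 lower genes was fixed by the filter. H2BC9 had 6.56 in HIF2A cells against 7.16 in control cells, 1.52-fold lower. H2BC7 had 6.50 in HIF2A cells against 7.0 in control cells, and H2BC11 had 5.54 in HIF2A cells against 5.96 in control cells. On the higher side, H2BC10 had 5.25 in HIF2A cells against 4.72 in control cells, 1.44-fold higher and the largest positive difference of any member. H2BC21 had 7.87 in HIF2A cells against 7.43 in control cells, H2BC5 had 5.16 in HIF2A cells against 4.79 in control cells, and H2BC13 had 4.92 in HIF2A cells against 4.6 in control cells. H2BC4, H2BC12 and H2BC17 completed the higher side with 0.30, 0.07 and 0.07. Probe sets shared by several genes did not show this gap. Of 6 that list H2B members and no other histone type, 5 were higher and 1 lower, from -0.20 to 0.25. The probe set that lists H2BC5, H2BC12 and H2BC17 with H2BC12L had 9.25 in HIF2A cells against 9.24 in control cells.

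Of the 6 H3 genes past the filter 4 were lower, 1 higher and 1 equal, and their median was -0.055. H3C7 had 6.56 in HIF2A cells against 6.78 in control cells, and H3C2 had 7.33 in HIF2A cells against 7.51 in control cells. H3C12 and H3C10 had differences of -0.07 and -0.04, and H3C8 had 6.43 in both arrays. The higher member, H3C3, had 4.86 in HIF2A cells against 4.48 in control cells.

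H4 genes were nearly all lower, 9 of the 10 past the filter, with a median of -0.245. H4C4 had 5.31 in HIF2A cells against 5.82 in control cells, H4C6 had 4.54 in HIF2A cells against 4.97 in control cells, and H4C9 had 5.52 in HIF2A cells against 5.94 in control cells. H4C2 had 7.04 in HIF2A cells against 7.43 in control cells. No single H4 gene reached 1.5-fold, the largest ratio being the 1.42 of H4C4. H4C13, H4C16, H4C3, H4C8 and H4C1 had differences between -0.27 and -0.01. H4C5, with 7.05 in HIF2A cells against 6.96 in control cells, was the higher member.

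Of the linker histones only 3 of 6 passed the filter, and they went both ways, with a median of 0.15. H1-4 had 10.83 in HIF2A cells against 10.63 in control cells, and H1-2 had 7.54 in HIF2A cells against 7.39 in control cells. H1-3 had 5.42 in HIF2A cells against 5.70 in control cells. With so few genes the median has no settled direction: over all 6 H1 members, of which 4 were lower, it was -0.045. The genes added there, H1-1, H1-5 and H1-6, lie under the olfactory receptor level in both arrays, so their differences lie within background.

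**Figure D2:**
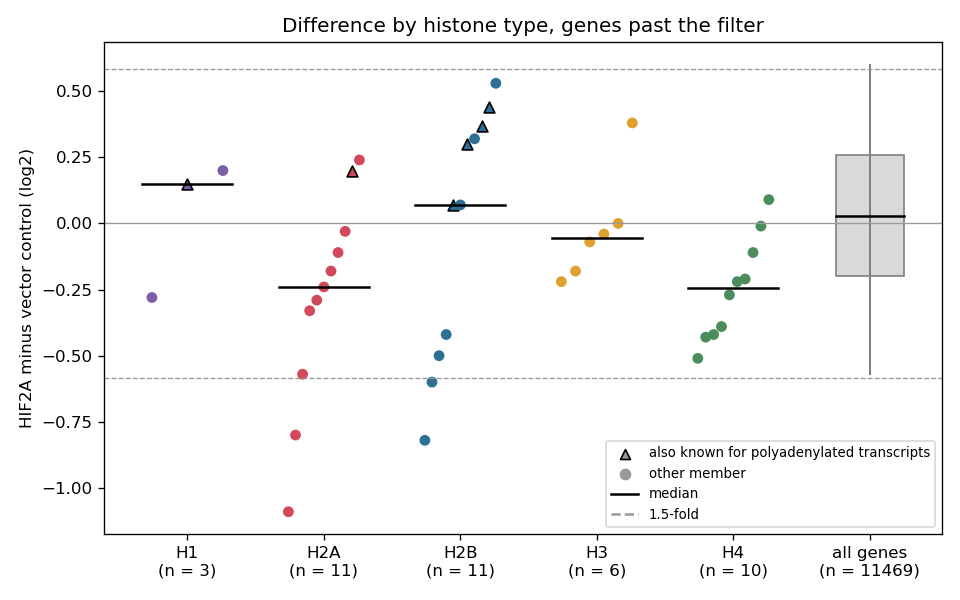
Difference between the HIF2A and vector control arrays (log2, vertical axis) of the 41 members past the filter, by histone type, with black lines at the medians. Triangles mark members also known for polyadenylated transcripts. The grey box spans the quartiles and its line the 5th to 95th percentiles of 11469 genes, and dashed lines mark 1.5-fold. H4 and H2A lie mostly below 0, H2B on both sides.

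A small set of histone genes is also known to make polyadenylated mRNAs, which persist outside S phase and in differentiated cells. Of the listed genes, H1-2, H2AC6, H2BC4, H2BC5, H2BC12 and H2BC21 were measured. All 6 were higher in HIF2A cells, where 52.6% of all genes past the filter were. The list was curated with earlier results of these data known. Their median was 0.25, with a range from 0.07 to 0.44, against a robust SD of 0.34 over all genes. None reached 1.5-fold, where 5.67% of all genes were at least 1.5-fold higher. H2BC4 had 6.13 in HIF2A cells against 5.83 in control cells. H2BC12 had 8.25 in HIF2A cells against 8.18 in control cells, the smallest difference of the set. Of the other 35 members past the filter 27 were lower, 7 higher and 1 equal, with a median of -0.22. Without the listed genes the H2B median turned to -0.42 over 7 genes and the H1 median to -0.04 over 2 genes. Since every gene removed was higher, the removal could only raise the share of lower genes, and these turns are no separate result. Whether the probes of these genes read the stem-loop form, the polyadenylated form or both was not tested.

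Some H2A and H2B genes form head-to-head pairs that share the DNA between their starts. In the promoter windows 9 such pairs of members start within 500 bases of each other, and in 6 both genes passed the filter. The pair H2BC8 and H2AC8 was lower on both sides, H2BC8 by at least 1.65-fold and H2AC8 by 2.13-fold. H2BC8 passed the filter only through the vector control array, so its direction was fixed by the filter. Also lower on both sides were H2BC11 and H2AC11, with -0.42 and -0.11. H2BC4 and H2AC6 were both higher, with 0.30 and 0.20. In the remaining 3 pairs the H2B gene was higher and the H2A gene lower: H2BC21 had 0.44 and H2AC20 -0.03, H2BC13 had 0.32 and H2AC13 -0.24, and H2BC17 had 0.07 and H2AC17 -0.18. Members of a pair thus had the same direction in 3 of 6 pairs, counting the pair of H2BC8. The search for pairs was made after the values had been seen.

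In RefSeq gene order, 37 of the 41 members past the filter lie on chromosome 6, 3 on chromosome 1 and H4C16 alone on chromosome 12. On chromosome 6, 24 were lower and 12 higher, with a median of -0.18. They fall into 3 stretches there when a gap of more than 10 other named genes, many of them tRNA genes, starts a new stretch. The first stretch, from H2AC1 to H4C8, had a median of -0.18 over 23 genes, the same as over all 41 members. It held all 4 members that were at least 1.5-fold lower, where 4.76% of all genes were. H2BC8, whose direction the filter fixed, is 1 of the 4. The second, from H2BC11 to H2AC12, had a median of -0.29 over 5 genes, and the third, from H2BC13 to H2BC17, one of -0.07 over 9. The chromosome 6 genes that are no histones and lie among or within 20 measured genes of the members had a median of 0.09 over 50 genes, with 31 higher and 19 lower. The 10 of them that lie between members had a median of 0.075. The median of these neighbours thus had the opposite sign to that of the members.

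**Figure D3:**
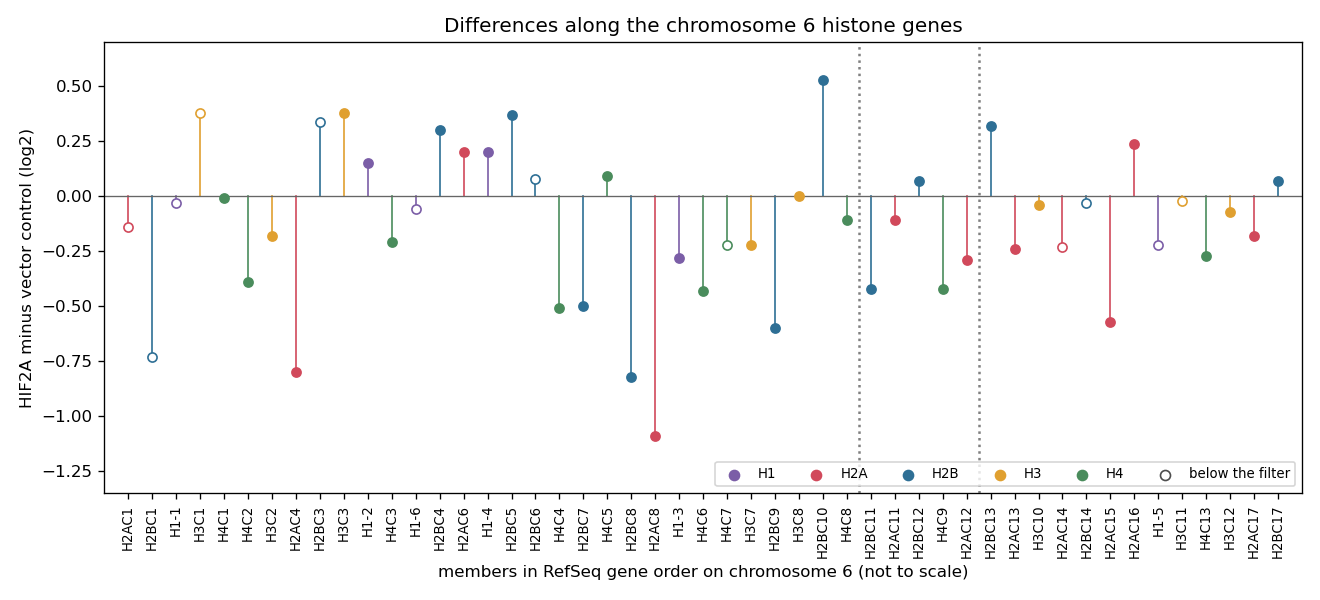
Difference between the HIF2A and vector control arrays (log2, vertical axis) of the members on chromosome 6 in RefSeq gene order, coloured by type, with open points for members below the filter. Dotted lines separate the 3 stretches. Filled points from H2BC4 to H2BC5 all lie above 0 and those from H2BC8 to H2BC9 all below it. H2AC8 has the largest negative difference, and the point of H2BC8 rests on a HIF2A signal under the olfactory receptor level.

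Several histone genes are read only by probe sets that the annotation assigns to more than a single gene, which the choice of members left out. There are 20 such probe sets, and 14 genes of the 70 that RefSeq names in this way are found only there. Of these probe sets 14 were higher, 5 lower and 1 equal, with a median of 0.07. The largest negative differences were those of the H4 pair H4C11 and H4C12, whose 2 shared probe sets had 6.97 and 5.90 in HIF2A cells against 7.65 and 6.53 in control cells, differences of -0.68 and -0.63. The other lower probe sets had differences of -0.20, -0.12 and -0.01. The 4 probe sets of H3C13, H3C14 and H3C15, the chromosome 1 genes of H3, had differences from -0.01 to 0.23. The 2 of H2AC18 to H2AC21 had 0.12 each, and the 2 of H4C14 and H4C15 had 0.07 each. In 3 cases a pair of these probe sets had the same values in both arrays, so the 20 are not separate measurements.

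The 14 members below the filter include the testis genes H2AC1, H2BC1 and H1-6. H2BC1 had 2.63 in HIF2A cells and 3.36 in control cells, H2AC1 had 2.99 in HIF2A cells and 3.13 in control cells, and H1-6 had 3.17 in HIF2A cells and 3.23 in control cells, all under the olfactory receptor level. For 12 of the 14 both arrays lay under that level, so the differences of those 12 lie within background. The exceptions were H2BC14, with 3.86 in HIF2A cells and 3.89 in control cells, and H2AC25, with 3.57 in HIF2A cells and 3.71 in control cells. The others are H1-1, H1-5, H2AC14, H2BC3, H2BC6, H2BC26, H3C1, H3C11 and H4C7.

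The replacement histones, which are made throughout the cell cycle, were also mostly lower. Of 9 past the filter 6 were lower and 3 higher, where 46.1% of all genes past it were lower. Their median was -0.24, and 1 was at least 1.5-fold lower, where 4.76% of all genes were. This was H2AZ2, an H2A.Z gene, with 7.80 in HIF2A cells against 8.54 in control cells, among neighbours with a median of -0.33. H3-3B, a gene of the H3 variant deposited outside replication, had 7.35 in HIF2A cells against 7.72 in control cells, and H2AZ1 had 8.46 in HIF2A cells against 8.81 in control cells. H2AX, the variant phosphorylated at DNA breaks, had 7.95 in HIF2A cells against 7.80 in control cells. MACROH2A1 and the linker histone gene H1-10 had differences of 0.08 and 0.06.

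Genes that switch on histone transcription went both ways, 4 higher and 3 lower with a median of 0.05. CCNE2, a cyclin E gene whose kinase drives histone gene activation at the start of S phase, had 4.97 in HIF2A cells against 5.89 in control cells, 1.89-fold lower. CCNE1 and CDK2 had differences of -0.21 and -0.05. NPAT, the cyclin E-CDK2 substrate that coactivates histone genes, had 5.91 in HIF2A cells against 5.36 in control cells, 1.46-fold higher. HINFP had 6.0 in HIF2A cells against 5.61 in control cells, and CASP8AP2, a histone locus body protein, had a difference of 0.21. NPAT and HINFP lie among neighbours with medians of 0.325 and 0.28.

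Genes of histone mRNA processing were divided as well, 5 higher and 5 lower, with a median of -0.01. SLBP had 7.85 in HIF2A cells against 7.39 in control cells, 1.38-fold higher. LSM11, a subunit of the U7 particle that cleaves histone pre-mRNA, had 5.43 in HIF2A cells against 4.94 in control cells, among neighbours with a median of 0.35. Its partner LSM10 had 5.99 in HIF2A cells against 6.31 in control cells. The scaffold gene SYMPK had a difference of 0.33, and NCBP2 and the cleavage complex gene CPSF2 -0.12 each.

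Genes of histone mRNA decay were mostly higher, 5 of 7 with a median of 0.34, where 52.6% of all genes past the filter were higher. At least 1.5-fold higher was 1 of the 7, where 5.67% of all genes were. The decapping gene DCP2 had 5.70 in HIF2A cells against 5.09 in control cells, 1.53-fold higher and among neighbours with a median of 0.29. UPF1, the helicase recruited to the stem-loop when replication stops, had 5.92 in HIF2A cells against 5.36 in control cells, and the exonuclease gene XRN1 had 5.97 in HIF2A cells against 5.61 in control cells. LSM1 had 6.87 in HIF2A cells against 7.22 in control cells, and ERI1, the stem-loop exonuclease gene, had a difference of -0.15.

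Histone chaperones had a median of 0.05 over 24 genes, with 13 higher, 10 lower and 1 equal. UBN1, SUPT6H and CABIN1 had differences of 0.61, 0.56 and 0.48. UBN1 and CABIN1 encode partners of the replication-independent H3 chaperone HIRA. ANP32E, an H2A.Z chaperone gene, had -0.52, the H3-H4 chaperone gene ASF1A -0.48, and HAT1, which acetylates new H4, and RBBP7, its partner, -0.40 each.

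DNA replication genes, the other signature of S phase, had a median of -0.05 over 40 genes, with 23 lower and 17 higher. PCNA, the sliding clamp gene, had 7.45 in HIF2A cells against 8.09 in control cells. The clamp loader gene RFC2 had 7.64 in HIF2A cells against 8.28 in control cells, and the polymerase gene POLE2 had 3.49 in HIF2A cells, which is under the olfactory receptor level, against 4.10 in control cells. MCM3, a helicase subunit gene, had 8.04 in HIF2A cells against 7.39 in control cells, and PRIM2 and ORC1 had differences of 0.56 and 0.53. At least 1.5-fold lower were 3 of the 40, where 4.76% of all genes were, and at least 1.5-fold higher was 1, where 5.67% of all genes were. POLE2 is among the 3 and passed the filter only through the vector control array. Genes of G2 and M phase had a median of 0.04 over 17 genes, with 11 higher and 6 lower. KIF20A, BUB1 and CDC20 had 0.85, 0.72 and 0.47, and CCNB2, AURKB and BUB1B -0.46, -0.42 and -0.42. The CDK inhibitors and RB family had a median of -0.16 over 9 genes, led by RBL2 with -0.52, CDKN2A with -0.38 and CDKN2B with -0.25, while CDKN1C had 0.11. The histone median lies below those of the replication and mitosis lists, and whether these differences are related was not tested.

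**Figure D4:**
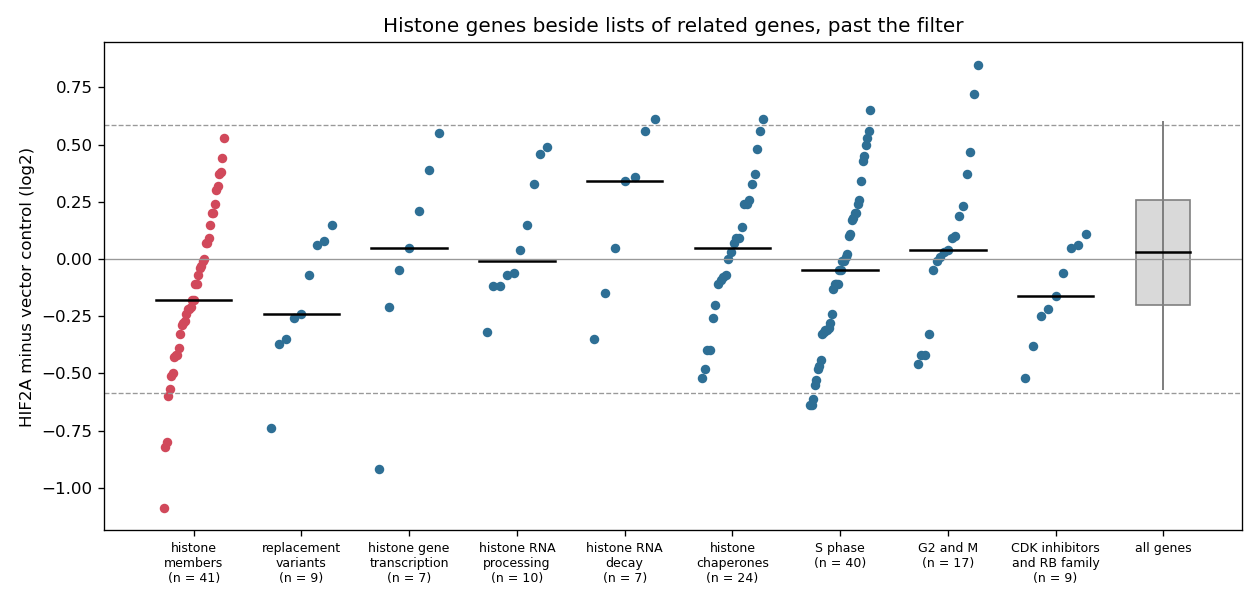
Difference between the HIF2A and vector control arrays (log2, vertical axis) of the 41 histone members beside the genes of 8 related lists, past the filter, with black lines at the medians. The grey box and line give quartiles and the 5th to 95th percentiles of all 11469 genes, and dashed lines mark 1.5-fold. Members and replacement variants have medians of -0.18 and -0.24, the decay genes one of 0.34.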

How the data were processed

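The authors deposited 1 log2 signal per probe set and array, which the submitters' processing notes credit to Affymetrix Expression Console. Its version, algorithm and between-array normalization: not given in the sources used here. Base 2 was inferred because the highest value, 13.97, exceeds the natural log of a 16-bit reading, 11.1. Of 28869 probe sets, 19310 list 1 gene symbol, 1752 several and 7807 none. The probe set with the highest mean signal stood for a gene. Members were matched by Entrez number to RefSeq (GRCh38.p14), 55 of 55, for names and gene order; the annotation's build is not given, so the only coordinates printed are those of the RefSeq promoter windows. Background was the 95th percentile of 339 olfactory receptor genes in each array. The members and lists were curated from general knowledge with earlier results of these data known. By the rule for named genes, each type shows up to 4 of its largest differences in each direction, each other list up to 3, and SLBP, NPAT and EPAS1 in any case; other members and markers are named freely. Alternatives covered scaling, an offset, filters, probe set choice, a floor, member subsets, neighbours and folds. The code was tested on simulated data. Software was Python 3.11.15 with pandas 2.3.3, numpy 2.4.6, statsmodels 0.14.6, matplotlib 3.10.9 and scipy 1.17.1.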

Additional observations from a re-analysis of the deposited data

How the results depend on the processing

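No replicate can be left out with 1 array per group. The members' median stayed below 0 in all 15 other settings that give it, between -0.22 and -0.09. Of these, 3 (both probe set choices and the removal of testis genes below the filter) could not change it. Some others could not bring it above 0. All members known for polyadenylated transcripts were higher, so their removal could only raise the share of lower members. The floor left the members' median at -0.18. Unfiltered data and the 25th percentile filter hold the same 55 members and both gave -0.11, so they are not separate. The H2A, H3 and H4 medians also stayed below 0 in each of the 15 settings, but more settings could not move them. The floor left these medians as they were. The removal of members known for polyadenylated transcripts touched no H3 or H4 gene. Every H3 gene past the filter lies on chromosome 6, so restricting members to it left the H3 median at -0.055. The H2A median came to -0.116 when 32 was added to each linear value, which shrinks dim differences by construction, and 1 member was then at least 1.5-fold lower, as were 143 of 11422 genes. With the filter at the 75th percentile 27 members entered and 2 were at least 1.5-fold lower, where 5.82% of all genes were. At 2-fold 1 member was lower, and with the threshold midway between no difference and 1.5-fold 12 were lower and 4 higher, where 15.4% of all genes were lower and 19.6% higher. The H1 and H2B medians had no settled direction. The H1 median was -0.045 unfiltered or with a 25th percentile filter, where the added H1 genes lie within background. It was -0.04 without members known for polyadenylated transcripts, and 0.0233 as a mean. The H2B median was -0.175 with the filter at the 75th percentile, -0.42 without members known for polyadenylated transcripts, -0.005 after subtracting the median of 20 neighbours, and -0.0218 as a mean. The cause was not tested where members entering the median did not change. Restricting members to chromosome 6 was chosen after seeing the data and left the median at -0.18.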

Other observations

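Histone-named genes outside the rule and the replacement list gave further values. H3-4, the testis H3 gene, had 4.69 in the HIF2A array and 4.82 in the vector control. The oocyte linker histone gene H1-8 had 4.47 in the HIF2A array and 4.61 in the vector control, and the testis linker histone gene H1-7 had 4.55 in the HIF2A array and 4.85 in the vector control. The H2B genes H2BW1 and H2BW2 had 3.86 and 5.33 in the HIF2A array, against 3.39 and 5.15 in the vector control. The pseudogene H2BC19P had 4.82 in the HIF2A array and 4.63 in the vector control. H1-10-AS1, antisense to the linker histone gene H1-10, had 4.77 in the HIF2A array and 4.34 in the vector control, a difference of 0.43.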
